A study of Arabidopsis thaliana with 44 samples.

Results

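The dehydrins of *Arabidopsis thaliana* were followed through a cold treatment of 2 natural ecotypes and their *CBF* mutants. The family was taken as 10 genes chosen by locus: *COR47* (AT1G20440), *ERD10* (AT1G20450, also called *LTI45*), *ERD14* (AT1G76180), *LTI30* (AT3G50970), *XERO1* (AT3G50980), *RAB18* (AT5G66400), *HIRD11* (AT1G54410), AT4G38410, AT4G39130 and AT2G21490. All 10 were found among the 33557 genes of the table, and the rule names loci and no level. RNA was sequenced from the whole aerial part of 23-day-old plants, sampled 4 h after lights on, in 44 samples that form 22 groups of 2. SW is an accession from Sweden and IT an accession from Italy, and both were sampled in the warm (22°C), after 24 h at 4°C and after 2 weeks at 4°C. IT carries a natural deletion that truncates its CBF2 protein, so every IT line in the comparison lacks a working *CBF2* of its own.

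The lines sw-cbf2 and sw-cbf123 are SW plants in which small CRISPR/Cas9 mutations inactivate *CBF2* or all 3 *CBF* genes (written sw:*cbf2* and sw:*cbf123* by the study). The line labelled it8 was taken as the IT triple mutant it:*cbf123*, because chart data in the supplement name the alleles of that mutant IT8. In it:*cbf123* the *cbf1* allele keeps its reading frame, and by the study's own overexpression assay its protein is inactive. The title of sw-cbf23 names *cbf23* in SW, and its alleles are not described in the sources used here. The line labelled 35s is an IT line sampled only in the warm. The study's methods name a *CBF2*-overexpressing line among the plants sequenced, and 35s is the line with high *CBF2* mRNA, though no label ties the name to it. For it33 the labels give only the ecotype (IT). The study removed the T-DNA that carried Cas9 by backcrossing. Cold-treated plants also stood under weaker light (about 35 against 100 to 120 μmol m-2 s-1) and the 2-week plants were older, so temperature, light and age cannot be told apart in any cold comparison.

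Dehydrins are group II late embryogenesis abundant (LEA) proteins. They have little fixed structure in solution and accumulate when cells lose water through drought, freezing or seed drying, where they coat membranes and help to keep other proteins soluble. In leaves several of them are classic cold-acclimation genes. CBF1, CBF2 and CBF3 are transcription factors that bind a promoter element called CRT/DRE, while abscisic acid (ABA) signals reach promoters through the ABA-responsive element (ABRE). Family members differ in how they are built. COR47, ERD10 and ERD14 are acidic proteins with a run of serines, LTI30 is built of repeated K-segments flanked by histidines, HIRD11 is a small histidine-rich protein that binds metal ions, and RAB18, named for its response to ABA, is rich in glycine.

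The mark of the family is the K-segment, a lysine-rich stretch of 15 residues that can fold into a helix on a membrane. The coding sequences of 5 K-segments are shown because they carry the feature that makes these genes 1 family. They were read from the RefSeq TAIR10.1 assembly (Col-0) and run 5′ to 3′ on the coding strand, and the capitals mark the codons of the 6-residue core.
*COR47*, first segment, chr1:7085073-7085117 (minus strand): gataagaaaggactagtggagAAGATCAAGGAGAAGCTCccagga
*ERD10*, first segment, chr1:7088550-7088594 (minus strand): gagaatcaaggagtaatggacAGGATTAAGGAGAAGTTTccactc
*LTI30*, sixth segment, chr3:18941350-18941394 (plus strand): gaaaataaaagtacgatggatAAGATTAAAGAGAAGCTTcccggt
*HIRD11*, single segment, chr1:20310437-20310481 (minus strand): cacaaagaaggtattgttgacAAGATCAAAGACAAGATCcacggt
*RAB18*, second segment, chr5:26518523-26518567 (minus strand): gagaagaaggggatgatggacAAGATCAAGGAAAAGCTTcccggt

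By this pattern LTI30 held 6 K-segments in 193 residues, COR47 (265 residues) and ERD10 (260 residues) held 3 each, and HIRD11 held 1 in 98 residues. ERD14, XERO1, RAB18, AT4G38410 and AT2G21490 held 2 each and AT4G39130 held 1. Histidine made up 13.5% of LTI30 and 13.3% of HIRD11, glycine 33.9% of RAB18, and glutamate 22.6% of COR47. ERD10 and ERD14 shared 71.6% of their aligned residues, and COR47 and ERD10 shared 71.0%. *COR47* (chr1:7084409-7086873) and *ERD10* (chr1:7087903-7089606) lie 1029 bases apart on the minus strand of chromosome 1. *LTI30* (chr3:18940643-18941611) and *XERO1* (chr3:18941925-18942940) lie 313 bases apart on the plus strand of chromosome 3. The longest run of bases that the *COR47* and *ERD10* transcripts share is 32, and how reads common to related genes were assigned is not given in the sources used here.

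The 1000 bases before each start codon were searched on both strands for CCGAC, the core of CRT/DRE, and for ACGTG, the core of the ABRE, with overlapping matches merged into 1 site. Of 27443 promoters of that length, 39.4% held at least 1 CCGAC site and 54.2% at least 1 ACGTG site. CCGAC was found before 7 of the 10 dehydrin genes and was not found before *HIRD11*, *XERO1* and AT4G39130. AT4G38410, a gene near the floor of the expression table, held the most CCGAC sites (4), followed by *LTI30* with 3, *RAB18* and AT2G21490 with 2 each and *COR47*, *ERD10* and *ERD14* with 1 each. The *ERD10* site is made of 3 overlapping matches. ACGTG was found before all 10 genes, with 4 sites each before *ERD14* and *RAB18*. Every CCGAC window is shown for the abundant dehydrins, whose levels in the *CBF* lines are described further on, and the ACGTG window for *HIRD11*, which has no CCGAC. Capitals mark the CCGAC core (GTCGG is CCGAC read on the other strand) and, for *HIRD11*, the ACGTG core (CACGT on the other strand). The window 191 bases before *LTI30* also holds an ACGTG match, left in lower case near its end.
*LTI30*, 283 bases before the start codon, chr3:18940532-18940556 (plus strand): ttaaaattacGTCGGtcgctaacca
*LTI30*, 260 bases before, chr3:18940555-18940579 (plus strand): cactactacaCCGACgtcttacttg
*LTI30*, 191 bases before, chr3:18940624-18940648 (plus strand): cttttacgatGTCGGccaacacgta
*ERD10*, 278 bases before, chr1:7089365-7089393 (minus strand): ttcatccaCCGACCGACCGACgtaaaaga
*COR47*, 268 bases before, chr1:7085918-7085942 (minus strand): tattcatctaCCGACttcaagaaat
*ERD14*, 899 bases before, chr1:28588542-28588566 (minus strand): ttgtctacatCCGACgttccatttc
*RAB18*, 631 bases before, chr5:26519770-26519794 (minus strand): gagaaactccCCGACaatgaacacc
*RAB18*, 206 bases before, chr5:26519345-26519369 (minus strand): aaacaccacgCCGACattttctgct
*HIRD11*, 490 bases before, chr1:20311077-20311101 (minus strand): tatataatcaCACGTctgagttagt

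The *COR47* and *ERD10* sites and the *RAB18* site at 206 bases lie inside the annotated genes, which begin 1209, 499 and 294 bases before the start codon. The letters are those of Col-0. The SW and IT promoters were not read, and a match is a description of the reference and not a binding site.

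**Figure D1:**
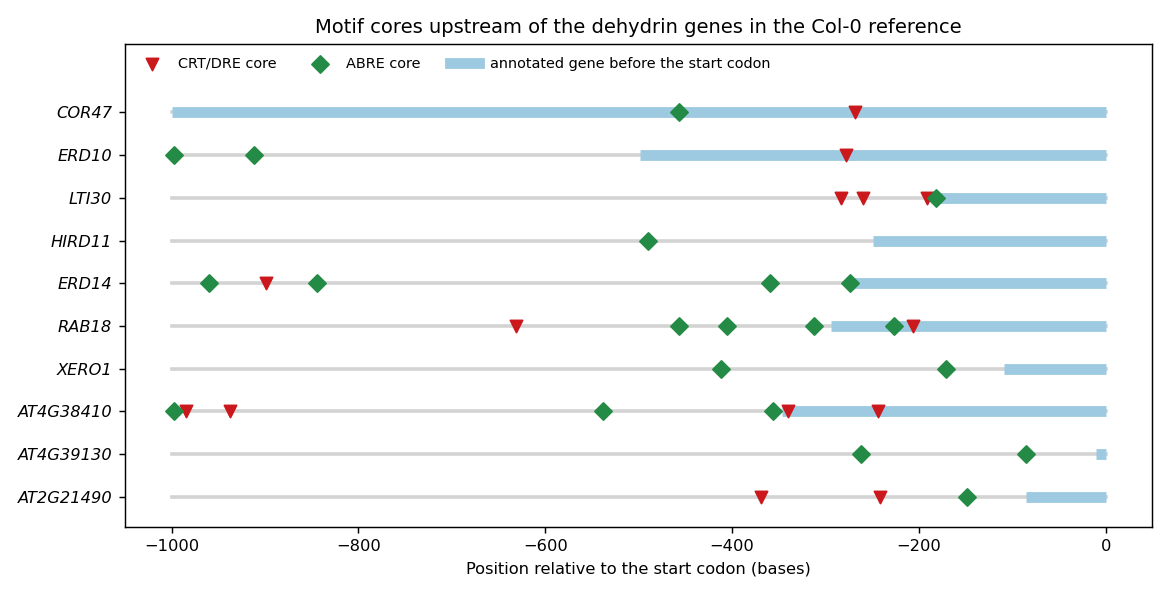
Motif cores in the 1000 bases before the start codon (x axis, bases; 0 is the start codon) of the 10 dehydrin genes (rows). Triangles are CCGAC sites, diamonds are ACGTG sites, and the blue bar is the annotated gene before the start codon. *LTI30* has 3 CCGAC sites within 283 bases of its start codon and *HIRD11* has none.

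The levels are FPKM, fragment numbers scaled by transcript length and by library size, so that they can be set side by side between genes. The table holds 1 pooled value for each group of 2 samples, as the authors' software combined them. Nothing below therefore has a replicate check, an error or a p-value, and the labels do not say whether the samples of a group came from separate plantings. The number of fragments per library is unknown. FPKM summed over all genes ran from 880986 to 1101341 among the groups, and 17705 to 18118 genes reached 1 FPKM. Of 1347 genes with a median of 100 FPKM or more, 16 were listed at 0 in some group, among them the leaf gene *RBCS1A* in sw-cbf123 at 2 weeks, so a listed 0 can be a failed estimate. The 5 leaf markers summed to 13547 to 47789 FPKM, while the seed markers summed to 0.0662 to 3.26 FPKM, the root markers to 8.77 to 28.5 FPKM, the guard cell markers to 18.4 to 52.2 FPKM and the flower markers to 0.157 to 0.821 FPKM. The reads of both ecotypes were aligned to Col-0, and the part of sequence differences from Col-0 in any value was not tested.

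Of the 10 dehydrins, 6 reached 1 FPKM in every group and 4 stayed under 1 FPKM in every group. The 6 are called abundant here for short, although *RAB18* among them was low, at 2.88 to 18.1 FPKM. For each ratio 0.5 FPKM was first added to either level, and a gene was tested when 1 of the groups reached 1 FPKM. A tested gene was called, and is said here to rise, fall or differ, when the ratio was 2-fold or more in either direction (a log2 ratio of at least 1 or at most -1). All 6 abundant dehydrins rose after 24 h of cold in SW, beside 14.6% of all 18828 genes tested, and all 6 rose in IT, beside 9.21% of 18619 genes. No dehydrin fell, whereas 14.7% of the genes tested fell in SW and 10.9% in IT. In whole aerial tissue a change in the cells present and a change in RNA per cell cannot be told apart.

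*LTI30*, the histidine-repeat dehydrin, had the widest range of the family. Its level in SW was 6.07 FPKM in the warm, 5855 FPKM at 24 h and 635 FPKM at 2 weeks, a log2 ratio to the warm of 9.80 and then 6.60. In IT it was 10.7, 3266 and 119 FPKM, with log2 ratios of 8.19 and 3.42. *LTI30* was the lowest but one of the 6 in the warm in both ecotypes and the highest of the family in IT at 24 h, where it was 1.06 times *HIRD11*. It ranked 11th among all genes in SW at 24 h and 30th in IT.

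The acidic pair *COR47* and *ERD10*, the neighbours on chromosome 1, started higher and rose by less. *COR47*, a gene named for its cold response, stood at 45.4, 6462 and 632 FPKM in SW and at 49.0, 2289.7 and 116 FPKM in IT. *ERD10*, an early dehydration gene whose protein binds membranes and keeps other proteins from aggregating, stood at 73.6, 9474 and 582 FPKM in SW and at 58.8, 1403 and 73.4 FPKM in IT. At 24 h the log2 ratios of *COR47* were 7.14 in SW and 5.53 in IT, and those of *ERD10* were 7.0 and 4.56. *ERD10* was the most abundant dehydrin in SW at 24 h and ranked 5th among all genes there, against 83rd in IT.

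*ERD14*, the third acidic dehydrin, was already abundant in the warm. It had 159 FPKM in warm SW, 1082 at 24 h and 245 at 2 weeks. In IT it had 422, 953 and 258 FPKM. Both ecotypes therefore met at a similar level at 24 h from warm levels that differed, and the log2 ratios at 24 h were 2.76 in SW and 1.18 in IT. At 2 weeks neither ratio was called (0.63 in SW and -0.71 in IT).

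*HIRD11*, the metal-binding dehydrin, was the most abundant member in the warm in every line. It had 999.7 FPKM in warm SW, 6806 at 24 h and 3895 at 2 weeks. In IT it had 565, 3091 and 1422 FPKM. The log2 ratios to the warm were 2.77 and 1.96 in SW and 2.45 and 1.33 in IT. Of the 6 abundant members *HIRD11* stayed nearest to its 24 h level in SW, with a log2 ratio of 2 weeks to 24 h of -0.80. The corresponding ratio was -1.12 in IT, a call that was lost on quantile-normalized values (-0.97).

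*RAB18*, the ABA-responsive member, was low throughout. It had 5.33, 11.2 and 2.88 FPKM in SW and 5.89, 13.2 and 8.80 FPKM in IT. Its log2 ratio at 24 h was 1.0 in SW and 1.10 in IT, both at the edge of the 2-fold rule, and with 1 FPKM added in place of 0.5 FPKM the SW ratio was 0.94. At its 5′ end 11 bases overlap AT5G66410 on the other strand, a gene with 12.7 to 26.1 FPKM, and the files do not say whether strand was used in counting. The share of *RAB18* reads from that neighbour was not tested.

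**Figure D2:**
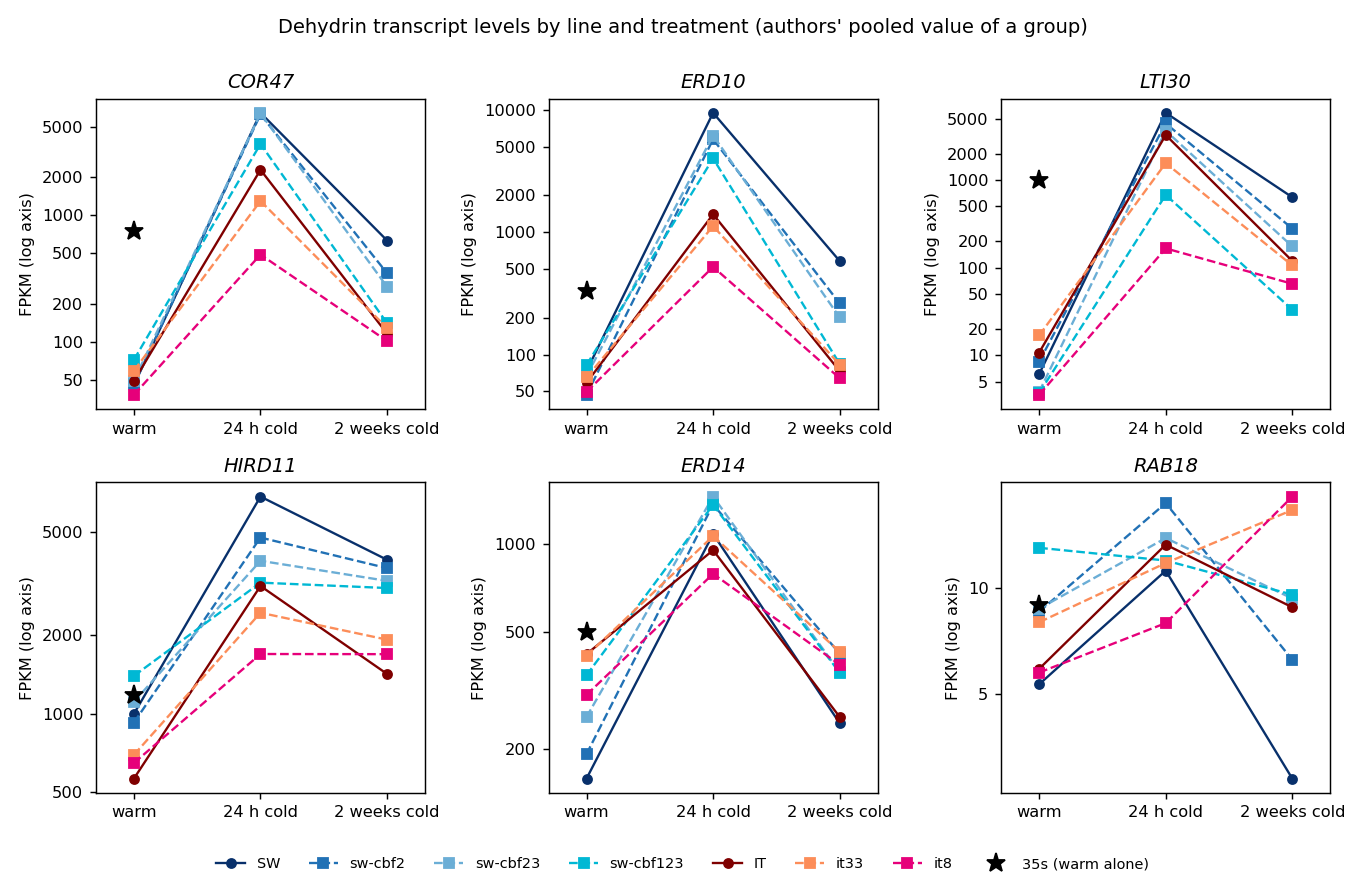
FPKM (y axis, log scale, a different range in each panel) of the 6 abundant dehydrins under the 3 treatments (x axis). Each point is the pooled value of 1 group; solid lines are SW and IT, dashed lines the other lines, and the star is 35s in the warm. *COR47*, *ERD10* and *LTI30* peak at 24 h in every line, *HIRD11* stays high at 2 weeks, and *RAB18* runs between 2.88 and 18.1 FPKM with no common course.

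The other 4 genes were close to the floor of the table. *XERO1*, a dehydrin described mainly from seeds, reached at most 0.553 FPKM (35s) although it lies next to *LTI30*, which had 1013 FPKM in the same group. AT4G38410 reached at most 0.639 FPKM, in sw-cbf23 at 24 h, and was listed at 0 in 3 groups. AT4G39130 was listed at 0 in 21 groups, with 0.0813 FPKM in warm it33. AT2G21490 was listed at 0 in 9 groups and had its highest value, 0.326 FPKM, in sw-cbf123 at 2 weeks. That group also had the highest values of the seed storage genes *CRA1* (0.465 FPKM), *CRC* (0.600 FPKM) and *CRB* (0.557 FPKM) and of the seed oil body gene *OLEO1* (1.06 FPKM). The remaining seed markers were highest in other groups, *EM6* in it33 at 2 weeks (0.685 FPKM) and *FUS3* in 35s (0.240 FPKM). All these values are near the floor, and the part of seed RNA in the value of AT2G21490 was not tested.

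Set against all genes, the family took a large place in cold SW plants. The FPKM of the 10 dehydrins summed to 1289 in warm SW (0.144% of the FPKM of all genes), 29692 at 24 h (3.31%) and 5993 at 2 weeks (0.680%). In IT the sums were 1111 (0.109%), 11016 (1.06%) and 1997 (0.215%). In SW at 24 h *ERD10*, *HIRD11*, *COR47* and *LTI30* ranked 5th, 9th, 10th and 11th of all genes, and *ERD14* ranked 85th. The make-up of the sum moved as well. *HIRD11* supplied 77.5% of it in warm SW, 22.9% at 24 h and 65.0% at 2 weeks, and 50.8%, 28.1% and 71.2% in IT. At 2 weeks *HIRD11* was again the largest part in every line, from 65.0% in SW to 82.8% in sw-cbf123.

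**Figure D3:**
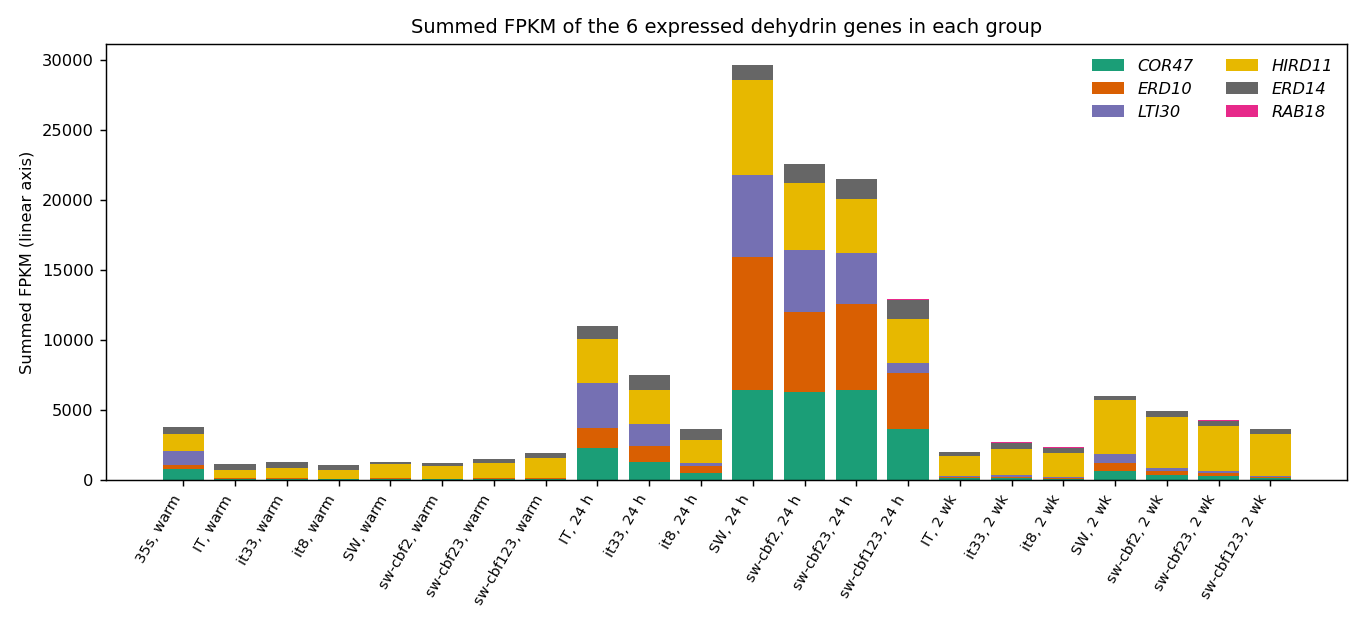
Summed FPKM (y axis, linear) of the 6 abundant dehydrins in each of the 22 groups (x axis), with the part of each gene stacked in colour. The sum is 29692 FPKM in SW at 24 h against 12913 in sw-cbf123, and 11016 in IT at 24 h against 3672 in it8.

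After 2 weeks fewer dehydrins stood above the warm level. In SW 4 of the 6 were still higher (*COR47*, *ERD10*, *LTI30* and *HIRD11*), beside 9.39% of genes higher and 11.4% lower. In IT 3 of the 6 were higher (*COR47*, *LTI30* and *HIRD11*), beside 7.89% higher and 11.7% lower. *ERD10* in IT, at 73.4 FPKM, was back within 1.25-fold of its warm level. Between 24 h and 2 weeks the level fell for 5 of the 6 dehydrins in SW, beside 9.41% of all genes, and for 5 of the 6 in IT, beside 10.4%. *HIRD11* was the exception in SW and *RAB18*, with a log2 ratio of -0.56, was the exception in IT.

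The other lines were taken through the same course. In each of sw-cbf2, sw-cbf23 and it33 5 of the 6 dehydrins rose from warm to 24 h (beside 13.3%, 13.3% and 11.4% of all genes), and *RAB18* was the member not called. *LTI30* reached a log2 ratio of 8.96 in sw-cbf2 and 6.50 in it33. At 2 weeks 5 of the 6 were above the warm level in sw-cbf2 (9.95% of all genes), 4 in sw-cbf23 (9.08%), 2 in sw-cbf123 (9.22%), 4 in it33 (7.56%) and 4 in it8 (8.08%). *LTI30* and *HIRD11* were among them in every line. *COR47* was among them in every line but sw-cbf123, where its log2 ratio was 0.96. *ERD14* was among them in sw-cbf2 alone (log2 ratio 1.13), a call lost on quantile-normalized values (0.91). *RAB18* was called above its warm level at 2 weeks only in it33 (log2 ratio 1.01, a call lost with 1 FPKM added) and it8, and in it8 it was the 1 dehydrin that rose between 24 h and 2 weeks (7.94 to 18.1 FPKM, log2 ratio 1.14), beside 8.44% of all genes.

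The triple mutants ask how much of each dehydrin response needs the 3 CBF proteins. The mutant *CBF* genes were still transcribed. *CBF3* stood at 144 FPKM in sw-cbf123 and 53.2 FPKM in SW at 24 h, and at 92.4 FPKM in it8 and 54.6 FPKM in IT, so the mRNA level is no check of the loss of the protein. In the warm *ERD14* (358 against 159 FPKM) and *RAB18* (13.0 against 5.33 FPKM) were higher in sw-cbf123 than in SW, beside 2.08% of all genes. *LTI30* was lower in warm it8 than in warm IT (3.52 against 10.7 FPKM), beside 1.33% of all genes.

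After 24 h the triple mutant of SW was called lower for 3 of the 6 dehydrins. *LTI30* stood at 676 FPKM against 5855 FPKM in SW, 8.66 times lower (log2 ratio -3.11). *ERD10* (4014 against 9474 FPKM, -1.24) and *HIRD11* (3184 against 6806 FPKM, -1.10) were also called lower, and *COR47* (3667 against 6462 FPKM) had a ratio of -0.82. *ERD14* (1360.2 against 1082 FPKM, 0.33) and *RAB18* (11.9 against 11.2 FPKM, 0.09) were not called. The count of 3 stands beside 5.57% of all genes lower and 5.27% higher. With quantile-normalized values *LTI30* alone kept its call, as *ERD10* moved to -0.75 and *HIRD11* to -0.48. Even so, 5 of the 6 dehydrins rose from warm to 24 h within sw-cbf123 itself (12.1% of all genes rose there), with log2 ratios of 7.34 for *LTI30*, 5.66 for *COR47*, 5.60 for *ERD10*, 1.93 for *ERD14* and 1.19 for *HIRD11*. The rise in FPKM was 11.5% of the SW rise for *LTI30*, 30.8% for *HIRD11*, 41.8% for *ERD10*, 56.0% for *COR47* and 109% for *ERD14*. *RAB18* had no rise in sw-cbf123 (a change of -1.03 FPKM, against a small rise of 5.85 FPKM in SW).

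In it8 at 24 h *LTI30* again had the lowest ratio of the family. It stood at 166 FPKM against 3266 FPKM in IT, 19.7 times lower (log2 ratio -4.30). *COR47* (489 against 2289.7 FPKM, -2.23) and *ERD10* (522 against 1403 FPKM, -1.43) were called lower, beside 1.57% of all genes lower and 0.807% higher. *HIRD11* (1696 against 3091 FPKM, -0.87), *RAB18* (7.94 against 13.2 FPKM, -0.70) and *ERD14* (792 against 953 FPKM, -0.27) were not called. Within it8 the same 5 dehydrins as in sw-cbf123 rose in the cold (11.4% of all genes rose), *LTI30* by a log2 ratio of 5.37 and *COR47* by 3.67. The rise in FPKM was 4.98% of the IT rise for *LTI30*, 20.1% for *COR47*, 35.1% for *ERD10*, 41.5% for *HIRD11* and 91.4% for *ERD14*. For *RAB18* it was 29.8% of a small rise (2.19 against 7.35 FPKM).

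At 2 weeks sw-cbf123 was called lower than SW for 3 dehydrins and it8 was called lower than IT for none, a difference between the ecotypes that was not tested. IT itself then stood little above its warm level, by 14.5 FPKM for *ERD10* and 67.0 FPKM for *COR47*, against 509 and 587 FPKM in SW. For these genes a 2-fold lower level in it8 would lie near or under the IT warm level, so the counts cannot compare the ecotypes. For *LTI30* the rise was 108 FPKM in IT and 629 FPKM in SW. The rise in it8 was 57.1% of the IT rise for *LTI30*, 94.6% for *COR47*, 99.9% for *ERD10* and 122% for *HIRD11*. In sw-cbf123 it was 4.66%, 11.6%, 0.361% and 56.6% of the SW rise in the same order. For *ERD10* and *COR47* the it8 shares rest on the small IT rises given above. *ERD14* had no rise in IT and *RAB18* none in SW, so they have no such pair of shares. In sw-cbf123 *LTI30* (33.0 against 635 FPKM, log2 ratio -4.25), *ERD10* (84.0 against 582 FPKM, -2.78) and *COR47* (140.3 against 632 FPKM, -2.17) were the 3, beside 2.63% of all genes lower. *ERD10* in sw-cbf123 was then within 1.02-fold of its own warm level. *RAB18* was higher in the mutant (9.56 against 2.88 FPKM, 1.57), beside 3.44% of all genes higher. In it8 no dehydrin was called lower than in IT at 2 weeks (0.906% of all genes were), and *RAB18*, at 18.1 against 8.80 FPKM, was the 1 dehydrin higher, with a log2 ratio of 1.0, beside 0.733% of all genes. The log2 ratios of *LTI30*, *COR47* and *ERD10* to IT were -0.86, -0.19 and -0.19. The *RAB18* call in it8 was lost with 1 FPKM added (0.96) and with median-of-ratios scaling (0.96). *HIRD11* stood at 3036 FPKM in sw-cbf123 against 3895 in SW, and at 1693 FPKM in it8 against 1422 in IT, and neither ratio was called.

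**Figure D4:**
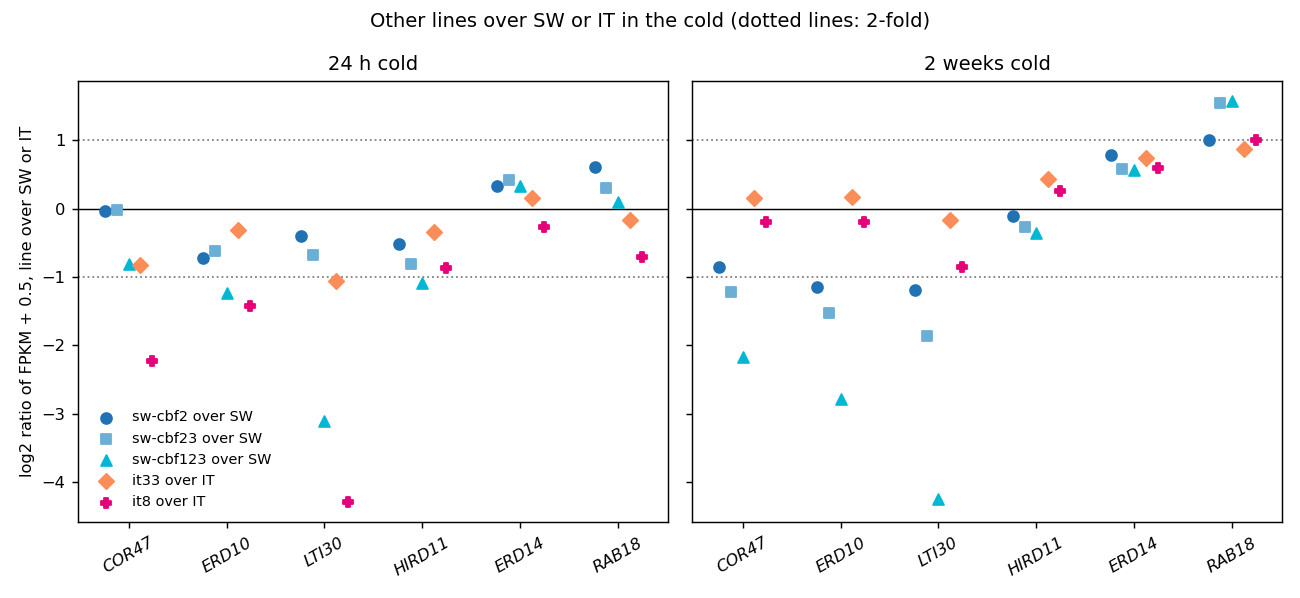
log2 ratio of FPKM + 0.5 (y axis) of each other line over SW or IT for the 6 abundant dehydrins (x axis), at 24 h (left) and 2 weeks (right); dotted lines mark 2-fold. *LTI30* has the lowest ratios in both triple mutants at 24 h (-3.11 in sw-cbf123 and -4.30 in it8), and at 2 weeks *COR47*, *ERD10* and *LTI30* are below -2 in sw-cbf123 alone. On quantile-normalized values *ERD10* and *HIRD11* in sw-cbf123 at 24 h are inside the dotted lines.

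The lines that share the SW group as a reference form a series, and their values are given side by side. At 24 h *LTI30* ran from 5855 FPKM (SW) through 4431 (sw-cbf2) and 3652 (sw-cbf23) down to 676 (sw-cbf123). *HIRD11* ran from 6806 through 4740 and 3860 to 3184 FPKM, and *ERD10* stood at 9474, 5758, 6181 and 4014 FPKM. *COR47* stood at 6462, 6284, 6399 and 3667 FPKM in the same order, and its rise from warm was 97.2% of the SW rise in sw-cbf2 and 98.9% in sw-cbf23. The corresponding shares were 65.7% and 47.3% for *HIRD11* and 60.7% and 65.0% for *ERD10*. *ERD14* and *RAB18* had a higher FPKM in each of these mutants than in SW. No dehydrin was called in sw-cbf2 at 24 h (3.39% of all genes were higher and 3.18% lower) and none in sw-cbf23 (3.20% higher, 2.24% lower). At 2 weeks *ERD10* and *LTI30* were lower in sw-cbf2 than in SW (262 and 279 FPKM), beside 1.62% of genes lower. *RAB18* in sw-cbf2 (6.25 against 2.88 FPKM) had a log2 ratio of 0.997, just short of a call, and was called higher with 0.1 FPKM added (1.09). *COR47*, *ERD10* and *LTI30* were lower in sw-cbf23 (272, 201 and 175 FPKM), beside 1.93% lower, and *RAB18* was higher there (9.32 FPKM), beside 3.42% higher. Set directly against sw-cbf23 at 24 h, sw-cbf123 was called lower for *LTI30* alone (log2 ratio -2.43), beside 2.09% of all genes.

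In it33, of which the labels give the ecotype only, *LTI30* at 24 h was 1561 FPKM against 3266 in IT (log2 ratio -1.07, beside 0.984% of genes lower), and the other 5 were not called. On quantile-normalized values that ratio fell just short of 2-fold. At 24 h *COR47* (1298 FPKM), *LTI30*, *ERD10* (1123 FPKM), *HIRD11* (2441 FPKM) and *RAB18* (11.7 FPKM) in it33 lay between IT and it8. *ERD14* (1064 FPKM) lay above both. At 2 weeks it33 had *RAB18* at 16.6 FPKM, near the 18.1 FPKM of it8, from a warm level of 7.99 FPKM (log2 ratio 1.01, and 0.97 with 1 FPKM added).

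Between SW and IT the calls numbered 1 before cold, 3 after 24 h and 5 after 2 weeks. In the warm *ERD14* alone was called, lower in SW (159 against 422 FPKM, log2 ratio -1.41), beside 17.3% of all genes lower and 10.7% higher. On quantile-normalized values that ratio was -0.98. At 24 h *ERD10* (log2 ratio 2.76), *COR47* (1.5) and *HIRD11* (1.14) were higher in SW, beside 11.1% of genes higher and 15.5% lower, while *LTI30* had 0.84, *ERD14* 0.18 and *RAB18* -0.24. At 2 weeks *ERD10* (2.98), *COR47* (2.44), *LTI30* (2.41) and *HIRD11* (1.45) were higher in SW, beside 9.23% of genes, and *RAB18* was lower (-1.46), beside 13.5%. The triple mutants were compared in the same way. In the warm *RAB18* (log2 ratio 1.11) and *HIRD11* (1.11) were higher in sw-cbf123 than in it8, beside 8.19% of all genes higher and 11.8% lower. *COR47*, at 0.91 in the warm, was called higher on quantile-normalized values alone (1.095). At 24 h the log2 ratios of sw-cbf123 to it8 were 2.94 for *ERD10*, 2.91 for *COR47* and 2.03 for *LTI30*, beside 8.12% of all genes higher and 12.8% lower, and *HIRD11*, at 0.91, was not called (1.22 on quantile-normalized values, where it is). At 2 weeks no dehydrin was called between the triple mutants (6.34% of genes were higher and 10.8% lower), but the count depends on the scaling. *LTI30*, at 33.0 FPKM in sw-cbf123 and 65.3 FPKM in it8, had a ratio of -0.97, and was called lower with median-of-ratios scaling (-1.02) and on quantile-normalized values (-1.03). *HIRD11*, at 0.84, was called higher on quantile-normalized values (1.29).

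The line labelled 35s, an IT line, had *CBF2* mRNA at 539.5 FPKM in the warm against 0.202 FPKM in IT. Without cold, 4 of the 6 dehydrins were higher in it than in IT, beside 1.77% of all genes higher and 3.68% lower. *LTI30* stood at 1013 against 10.7 FPKM (log2 ratio 6.50), *COR47* at 746 against 49.0 FPKM (3.92), *ERD10* at 334 against 58.8 FPKM (2.49) and *HIRD11* at 1176 against 565 FPKM (1.06). *ERD14* (499.9 against 422 FPKM, 0.25) and *RAB18* (8.96 against 5.89 FPKM, 0.56) were not called.

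Over the 22 groups the levels of *COR47*, *ERD10* and *LTI30* moved together. On log2(FPKM + 0.5), Pearson's r was 0.98 between *COR47* and *ERD10*, 0.95 between *COR47* and *LTI30* and 0.89 between *ERD10* and *LTI30*. *ERD14* had an r of 0.87 with *COR47* and 0.59 with *HIRD11*, and *RAB18* had an r of 0.31 to 0.56 with the others. These are descriptions of 22 groups that share treatments and ecotypes. Among 20450 other genes, the closest to *COR47* were AT1G33230, the starch-degradation gene *SEX1* and the cold- and drought-responsive gene *LTI78* (*RD29A*), each with an r of 0.98. The closest to *ERD10* were *SEX1*, AT1G10090 and the phospholipase C gene *PLC4* (0.97 to 0.98), and the closest to *LTI30* were AT1G16850, AT5G17460 and *LTI78* (0.97 to 0.98). *ERD14* was closest to *TAT7*, AT4G27680 and *PP2CA*, a phosphatase of ABA signalling (0.94 to 0.96). *HIRD11* was closest to AT4G27100, *HMGB2*, which encodes a chromatin protein, and AT3G07890 (each 0.96). *RAB18* had no gene as close, with AT5G51390 at 0.84, *PEPKR2* at 0.79 and AT1G78040 at 0.76.

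Lists of related genes give the setting of the family. Of 10 CBF-controlled cold genes, such as the chloroplast protein gene *COR15A*, all 10 rose at 24 h in SW (median log2 ratio 6.14) and all 10 in IT (6.34), where the median over all genes tested was -0.02 and -0.06. The share of all genes that rose was 14.6% in SW and 9.21% in IT. In sw-cbf123 7 of these 10 were lower than in SW at 24 h (median -1.41), from *GolS3* at -3.40 to *KIN2* at -0.03, and in it8 all 10 were lower than in IT (median -2.69). The share of all genes lower was 5.57% in sw-cbf123 and 1.57% in it8. At 2 weeks all 9 tested were lower in sw-cbf123 (median -2.28) and 7 of 10 in it8 (median -1.65), beside 2.63% and 0.906% of all genes. All 10 were higher in 35s than in IT (median 4.31), beside 1.77% of all genes. Most of these 10 genes, *COR15A* and *GolS3* among them, are in a gene set that the study picked partly from these same data. Genes of that set had to rise at 24 h of cold and to be reduced at least 2-fold in the triple mutants. Their calls at 24 h in SW, IT, sw-cbf123 and it8 were therefore largely fixed beforehand and are no independent check.

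Of 8 ABA-responsive genes, 7 rose at 24 h in SW (median log2 ratio 2.25), among them *NCED3*, which encodes an enzyme of ABA synthesis (4.59), and 3 rose and 1 fell in IT (median 0.29). Of all genes tested, 14.6% rose in SW, and 9.21% rose and 10.9% fell in IT. The larger rise in SW started from lower warm levels. In the warm 6 of the 7 tested were lower in SW than in IT (median -2.07), beside 17.3% of all genes lower. At 24 h 2 of the 8 were lower in SW (median -0.17), beside 15.5% of all genes. In sw-cbf123 against SW none of the 8 was higher and 1 was lower at 24 h, beside 5.27% of all genes higher and 5.57% lower. None was called at 2 weeks, where *RAB18* was higher, beside 3.44% of all genes higher and 2.63% lower. In it8 against IT none was called at 24 h (0.807% of all genes higher, 1.57% lower) or at 2 weeks (0.733% higher, 0.906% lower). With shares this low, the absence of calls among 8 genes says little about them. Of 12 seed maturation genes, 10 stayed under 1 FPKM in both SW groups at 24 h, and the 2 LEA genes *LEA4-5* (0.130 to 34.3 FPKM) and *LEA7* (0.101 to 44.9 FPKM) rose.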

How the data were processed

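The deposited values are FPKM. According to the study's methods and the submitters' processing notes, the authors mapped reads to TAIR10 (TopHat 2.1.0 over Bowtie2 2.2.6) and obtained FPKM from Cuffdiff in Cufflinks (2.2.1 in the methods, 2.1.1 in the notes), which corrects for the length of a transcript and the size of a library and merged the 2 replicates of a group. Groups were taken from the sample labels. From the FPKM, log2 ratios were computed after adding 0.5 FPKM, for genes at 1 FPKM or more in 1 of the groups compared, and called at 2-fold, the fold threshold of the study. The FDR of the study needs replicate values, which were not used here. Fragment counts are not given, so the precision of a value is unknown. Alternatives were 0.1 or 1 FPKM added, no filter, quantile normalization and median-of-ratios scaling. The ratio and call steps were tested on simulated data. All 10 dehydrins were named, with the 3 genes of highest correlation for each one that reached 1 FPKM, and examples with extreme ratios from the fixed lists. *RBCS1A*, *CRA1*, *CRC*, *CRB*, *OLEO1*, *EM6* and *FUS3* (markers), *COR15A* and *LEA4-5* were named after their values were seen. The members and lists were chosen with earlier results of these data known. Python 3.11.15, NumPy 2.4.6, pandas 2.3.3, Biopython 1.88 and matplotlib 3.10.9 were used, with genome and gene models of RefSeq TAIR10.1. Protein sequences were translated from the reference coding sequences for the counts of residues, and promoters are the 1000 bases before the start codon.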

Additional observations from a re-analysis of the deposited data

Results flagged for a closer look

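At 2 weeks *ERD14* and *RAB18* moved in opposite directions in the 2 ecotypes. The log2 ratio of 2 weeks of cold to the warm for *ERD14* was 0.63 in SW (159 to 245 FPKM) and -0.71 in IT (422 to 258 FPKM). For *RAB18* it was -0.78 in SW (5.33 to 2.88 FPKM) and 0.54 in IT (5.89 to 8.80 FPKM). Each of these 4 ratios is under 2-fold and rests on 1 pooled value per group, and the difference between the ecotypes was not tested.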

How the results depend on the processing

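Of 2750 log2 ratios recomputed under 5 alternatives (0.1 or 1 FPKM added, no filter, quantile normalization, median-of-ratios scaling), 2729 stayed on their side of 2-fold, 12 lost the call and 9 gained one. Of the called ratios 0 changed direction. The sign changed for 21 ratios that were not called, none of them beyond 0.39 on the log2 scale in either direction. Quantile normalization accounted for 7 of the calls lost. With it the dehydrins called in sw-cbf123 over SW at 24 h went from 3 to 1. The single call in it8 over IT at 2 weeks, *RAB18*, went to 0 with 1 FPKM added and to 0 with median-of-ratios scaling. The counts of 25 further comparisons were recomputed in the same way, a choice made after seeing the data. On quantile-normalized values the call in SW over IT in the warm (*ERD14*) went from 1 to 0 and that in it33 over IT at 24 h (*LTI30*) from 1 to 0. For sw-cbf123 over it8 at 2 weeks the count went from 0 to 2 on quantile-normalized values and to 1 with median-of-ratios scaling. Of all 35 counts, 30 stayed within 1.5 times under every one of the 5 alternatives. The scalings moved the median log2 ratio of all genes by -0.11 to 0.06 (median-of-ratios) and by -0.10 to 0.13 (quantile). No paired analysis was possible because each group has 1 pooled column, and for the same reason no replicate could be left out. Depth per library is unknown, so the precision of the 4 genes under 1 FPKM cannot be given.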
